A study of Canis lupus familiaris with 12 samples.

Results

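Microglia are the resident macrophages of the brain, and the 33 genes described here mark their identity or their activation. In the healthy brain they survey tissue with the purine receptor P2RY12 and the fractalkine receptor CX3CR1, and they depend on signalling through CSF1R. When they take up debris or become reactive, microglia are known, largely from mouse work, to make less of this homeostatic set and more of a lysosomal and lipid-handling set that includes CD68, cathepsins, LPL, SPP1 and GPNMB. The genes were taken by symbol from a list of known microglial genes, drawn up with earlier results of these data known. Rows existed for 31 of the 33 symbols among the 31158 gene models of the hippocampal table. TREM2 and CD33 were not analysed here.

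The hippocampal samples came from beagles. One arm, called pacing, had rapid atrial pacing for 2 weeks, and the other, called sham, had a sham operation. Each arm had 3 samples. The series has 12 samples in all, and the rest, exosome microRNA from fat around the atrium, were not used here. The labels state neither age nor sex, and they do not say whether the samples of an arm come from different dogs, so p-values measure the spread between these samples, which may in part be technical. The design asks how atrial fibrillation bears on cognitive impairment.

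Levels are in RPKM, reads scaled to exon length and to the library's reads assigned to genes, so levels of different genes can be compared per length. Differences are pacing minus sham on the log2(RPKM + 1) scale, which understates the change of genes near or under 1 RPKM. They were tested with limma over the 16090 genes with a mean of at least 0.5 RPKM, and p-values were adjusted over all of these by the Benjamini-Hochberg method. Of the 31 microglial genes, 29 passed this filter. HPGDS and GPNMB did not.

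Libraries held between 35003483 and 51789497 assigned reads. Sham replicate 2 stood apart from the other libraries, at 39.6 on a first principal component with 45.3% of the variance, against 8.61 for sham replicate 3 and -13.5 to -9.62 for the other 4. Sham replicate 3 stood apart on component 2 (25.5% of the variance), at -29.1 against -6.21 to 13.6 elsewhere. All 10 microglial markers with a row, of 11 fixed for checking the label, had a mean of at least 0.5 RPKM over the libraries, from 0.667 for P2RY13 to 15.9 for AIF1. These markers are themselves among the genes described here, so they are no independent check of the label. Of 39 other microglial identity genes with a row, 6 lay under 0.5 RPKM. All 7 hippocampal markers with a row were expressed, at a summed 142 to 173 RPKM in pacing and 104 to 169 RPKM in sham. Lymphocyte markers were scarce, with 7 of 9 under 0.5 RPKM, CD3D, CD3E, CD3G, CD79A and MS4A1 among them. Perivascular macrophage markers were present, at a summed 23.9, 29.7 and 25.5 RPKM in pacing libraries 1 to 3, against 19.5, 57.6 and 30.0 RPKM in sham libraries 1 to 3. Some of the microglial genes are also made by these macrophages, and in bulk tissue fewer cells of a type and less RNA per cell cannot be told apart.

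No microglial gene passed the threshold of 0.05. Limma called 0 of 29 after adjustment over all genes, where 0.0249% of all genes tested were called (0.0186% as higher in pacing), and limma-voom on reads recovered from the RPKM values also called 0. At an unadjusted p under 0.05, 3 of the 29 were higher in pacing, or 10.3%, against 2.85% of all genes tested, and 0 were lower, against 6.3% of all genes tested. These 3 were TMEM119, INPP5D and P2RY12. By arm mean on the log2 scale 22 of 29 were higher in pacing, or 75.9%, against 41.1% of all genes tested. The median log2 difference was 0.12 over the 29 and -0.04 over all genes tested. Without sham replicate 2 there were 26 of 29 higher and without sham replicate 1 there were 19.

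**Figure D1:**
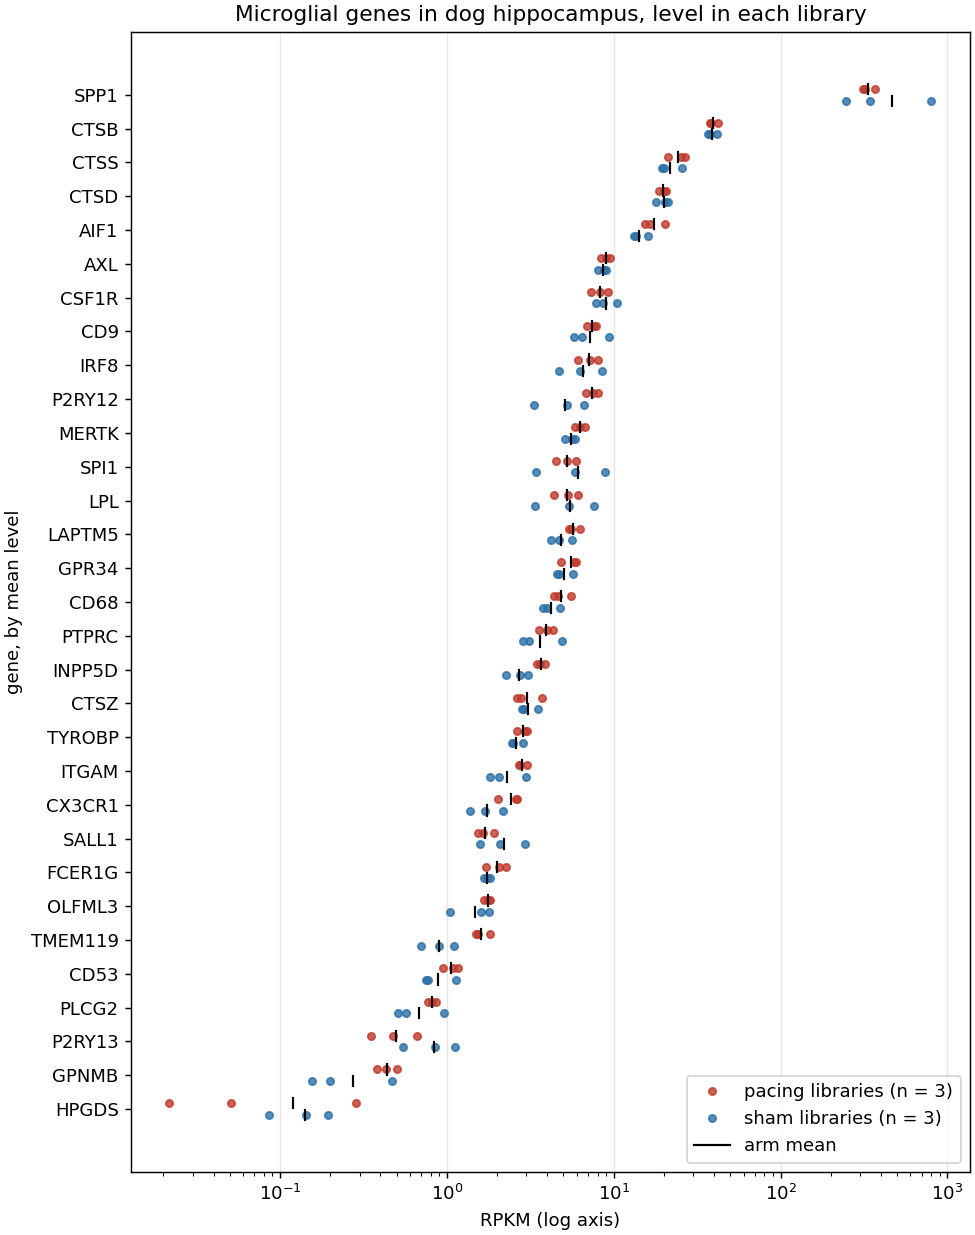
Level of the 31 microglial genes in each hippocampal library, in RPKM on a log axis, with genes ordered by mean level, pacing libraries drawn above sham libraries and black ticks at the arm means (n = 3 each). SPP1 lies above all other genes in each library, and its sham libraries run from 245 to 803 RPKM, while HPGDS and GPNMB lie at the bottom.

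Levels spanned a wide range. SPP1, which encodes the secreted phosphoprotein osteopontin, was the most abundant at 334 ± 31.2 RPKM in pacing libraries and 464 ± 297 RPKM in sham libraries (mean ± SD of 3, as for every ± value here), above 99.3% of all genes tested. The lysosomal proteases CTSB, CTSS and CTSD followed, together with AIF1, the calcium-binding protein known as IBA1. These 5 genes were the only ones of the 31 with a mean of at least 10 RPKM, and 15 had a mean of at least 5 RPKM. The homeostatic receptors were spread over the range, with CSF1R above 63.9%, P2RY12 above 56.1%, GPR34 above 51.9%, CX3CR1 above 29.6%, TMEM119 above 17.7% and P2RY13 above 5.3% of all genes tested. TMEM119 rested on 739 reads in all 6 libraries together, P2RY12 on 3992 and SPP1 on 159204.

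Of the 6 homeostatic receptors, 4 were higher and 2 lower in pacing by arm mean, and their log2 differences spanned -0.29 to 0.51. P2RY12, which senses nucleotides and guides microglial processes, had 6.80, 8.08 and 7.47 RPKM in pacing against 6.61, 5.28 and 3.34 RPKM in sham. Every pacing library lay above every sham library, by little for sham replicate 1 and by most for sham replicate 3. The log2 difference was 0.51 (95% interval 0.038 to 0.98; unadjusted p = 0.0379, adjusted p = 0.529 by limma), a ratio of arm means of 1.47. Without sham replicate 3 the log2 difference was 0.29. The gene lies on the minus strand of chromosome 23 from 45908574 to 45954675 (all positions on CanFam3.1 as the deposited table gives them), inside the MED12L model on the plus strand and with no exon base shared. MED12L itself had 2.87 ± 0.328 RPKM in pacing and 3.0 ± 0.784 RPKM in sham.

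TMEM119, a transmembrane protein used as a microglial marker, had 1.49, 1.80 and 1.53 RPKM in pacing against 1.097, 0.899 and 0.696 RPKM in sham. The arms did not overlap, and this gene had the smallest p of the 29. Its log2 difference was 0.46 (95% interval 0.19 to 0.73; unadjusted p = 0.00482, adjusted p = 0.36 by limma), with a ratio of arm means of 1.79. Reads numbered 150, 171 and 124 in pacing against 127, 108 and 59 in sham, so counting error is part of its spread. Because the level is near 1 RPKM, the log2 difference was 0.79 with a pseudocount of 0.1 and 0.84 by limma-voom, with adjusted p = 0.371 and adjusted p = 0.399. TMEM119 lies on chromosome 26 from 18275719 to 18282905.

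CX3CR1, the receptor for the neuronal chemokine fractalkine, had 2.61, 2.65 and 2.01 RPKM in pacing against 2.16, 1.70 and 1.37 RPKM in sham. The arms overlapped, since sham replicate 1 lay above pacing replicate 3. The log2 difference was 0.32 (95% interval -0.0092 to 0.66; adjusted p = 0.547 by limma). For CX3CR1, P2RY12 and TMEM119 alike, sham replicate 3 was the lowest library and sham replicate 1 the highest of the sham libraries.

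P2RY13, a purine receptor gene on the same strand 6.53 kb away from P2RY12 and also inside MED12L, had the opposite order. It stood at 0.353, 0.664 and 0.477 RPKM in pacing against 0.544, 1.12 and 0.847 RPKM in sham, with overlap between pacing replicate 2 and sham replicate 1. The log2 difference was -0.29 (95% interval -0.62 to 0.051; adjusted p = 0.595 by limma), and it was -0.73 by limma-voom (adjusted p = 0.591). Only 170 reads in pacing and 333 in sham stood behind these values.

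CSF1R, the receptor for the growth factors that microglia need to survive, had 8.26, 9.20 and 7.35 RPKM in pacing against 7.88, 10.5 and 8.62 RPKM in sham. Its arms overlapped and the log2 difference was -0.10 (95% interval -0.41 to 0.20; adjusted p = 0.819 by limma). GPR34, a lysophosphatidylserine receptor, averaged 5.51 ± 0.607 RPKM in pacing and 5.01 ± 0.625 RPKM in sham, also with overlap. OLFML3, a secreted matrix protein that marks microglia in mouse, averaged 1.75 ± 0.0771 RPKM in pacing and 1.48 ± 0.381 RPKM in sham, where sham replicate 3 at 1.05 RPKM was the low library. HPGDS, the haematopoietic prostaglandin D synthase, had 38 reads in all and lay under 0.3 RPKM in every library. With no filter its log2 difference was -0.034 (adjusted p = 0.921 by limma), and so few reads limit what can be seen.

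**Figure D2:**
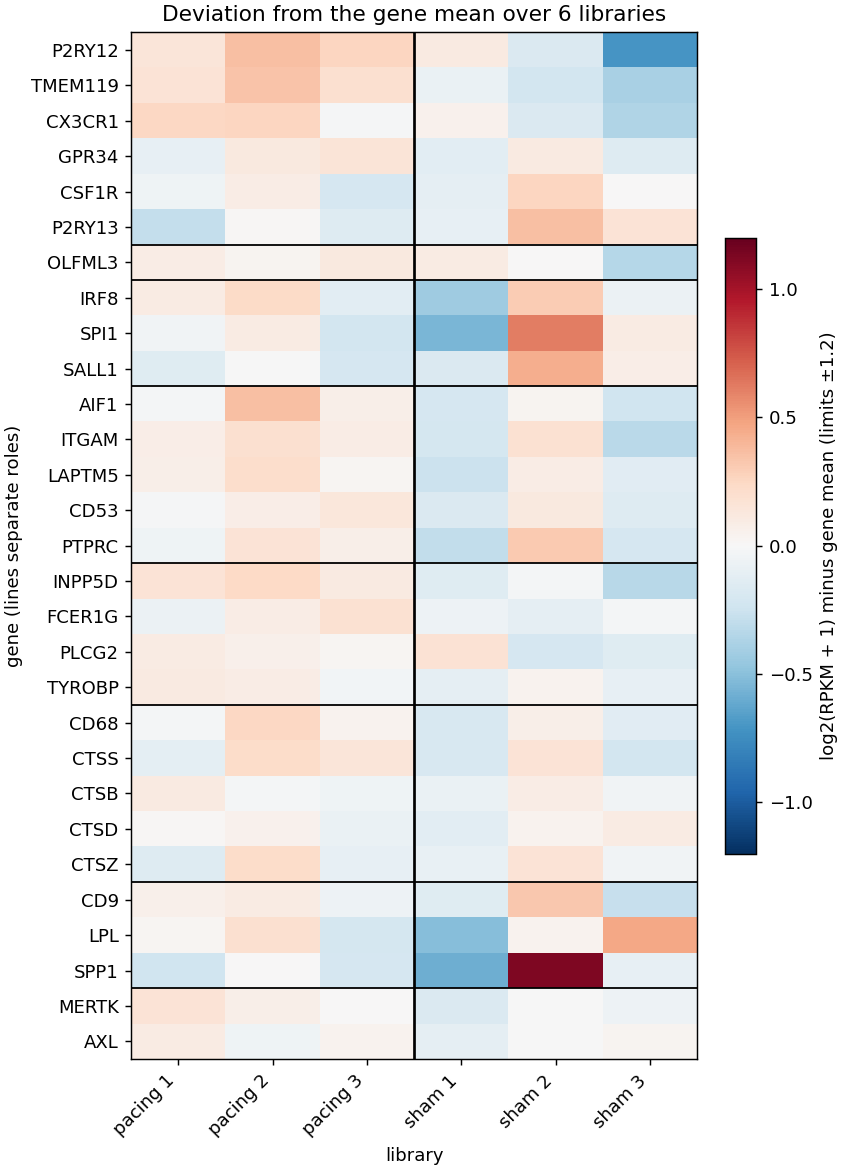
Deviation of each of the 29 tested genes from its own mean over the 6 libraries, in log2(RPKM + 1), with pacing libraries left of sham libraries and black lines between roles. Sham replicate 2 is high for SPP1, SPI1 and SALL1, sham replicate 3 is low for P2RY12, TMEM119 and CX3CR1, and sham replicate 1 is low for SPI1, SPP1, LPL and IRF8.

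Transcription factors of the lineage varied more between sham libraries than between arms. SPI1, the factor PU.1 that directs myeloid fate, had 5.27, 5.92 and 4.52 RPKM in pacing against 3.42, 8.89 and 5.90 RPKM in sham. The sham libraries held both the lowest and the highest value, and all pacing libraries lay between them. IRF8, a partner of PU.1 in myeloid cells, showed the same arrangement, with 7.22, 8.02 and 6.07 RPKM in pacing against 4.72, 8.50 and 6.32 RPKM in sham. SALL1, a factor that keeps microglial identity in mouse, had 1.64, 1.91 and 1.53 RPKM in pacing against 1.58, 2.94 and 2.07 RPKM in sham. Sham replicate 2 was the highest library for all of SPI1, IRF8 and SALL1. The log2 differences were -0.11, 0.13 and -0.23, with adjusted p from 0.683 to 0.918 by limma, and that of SPI1 was 0.17 without sham replicate 2.

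The pan-myeloid genes were all higher in pacing by arm mean, and in none of them did the arms separate. AIF1 had 15.5, 20.4 and 16.6 RPKM in pacing against 13.5, 16.1 and 13.2 RPKM in sham (log2 difference 0.27, 95% interval -0.037 to 0.58; adjusted p = 0.585 by limma). ITGAM, the integrin chain CD11b, had 2.72, 3.03 and 2.75 RPKM in pacing against 2.05, 3.0 and 1.82 RPKM in sham. LAPTM5, a lysosomal membrane protein of blood-derived cells, averaged 5.73 ± 0.46 RPKM in pacing and 4.85 ± 0.72 RPKM in sham. In each of these genes sham replicate 2 lay inside the pacing range while sham replicates 1 and 3 lay below it. PTPRC, the phosphatase CD45, had 3.56, 4.31 and 3.96 RPKM in pacing against 2.86, 4.87 and 3.12 RPKM in sham. CD53, a leukocyte tetraspanin, averaged 1.06 ± 0.107 RPKM in pacing and 0.889 ± 0.218 RPKM in sham. The log2 differences of these 5 genes ran from 0.12 for PTPRC to 0.27 for AIF1. They depended on single libraries. Without sham replicate 2 the 5 ran from 0.23 for CD53 to 0.39 for ITGAM. Without sham replicate 1 PTPRC was at 0.0040, CD53 at 0.082 and LAPTM5 at 0.13. Without sham replicate 3 PTPRC was at 0.051 and ITGAM at 0.13, and without pacing replicate 2 PTPRC was at 0.068 and AIF1 at 0.16.

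Signalling genes that act through ITAM motifs, tyrosine-based activation motifs of immune receptors, or through phosphoinositides were higher in pacing by arm mean in 4 of 4. INPP5D, the inositol phosphatase SHIP1 that restrains such signals, had 3.63, 3.87 and 3.46 RPKM in pacing against 2.75, 3.06 and 2.27 RPKM in sham. All pacing libraries were above all sham libraries. Its log2 difference was 0.34 (95% interval 0.069 to 0.60; unadjusted p = 0.0204, adjusted p = 0.467 by limma), and the ratio of arm means was 1.35. INPP5D lies on chromosome 25 from 44612146 to 44731347, and 3885 reads stood behind it.

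TYROBP, the ITAM adaptor DAP12 with which TREM2 pairs, had 3.01, 2.95 and 2.65 RPKM in pacing against 2.45, 2.85 and 2.49 RPKM in sham. FCER1G, the gamma chain of Fc receptors, averaged 2.01 ± 0.263 RPKM in pacing and 1.74 ± 0.077 RPKM in sham. Both were low in reads, at 426 for TYROBP and 388 for FCER1G, and in both the arms overlapped. PLCG2, a phospholipase downstream of ITAM receptors, had 0.862, 0.819 and 0.767 RPKM in pacing against 0.964, 0.510 and 0.570 RPKM in sham. PLCG2 was the 1 gene of the 29 with its highest value in sham replicate 1.

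Of the lysosomal genes, 3 of 5 were higher in pacing by arm mean, their median log2 difference was 0.020, and the arms overlapped in each. CD68, a glycoprotein of macrophage lysosomes, had 4.39, 5.54 and 4.66 RPKM in pacing against 3.79, 4.76 and 3.99 RPKM in sham (log2 difference 0.18, adjusted p = 0.668 by limma). CTSS, a cathepsin largely limited to antigen-presenting cells, had 21.0, 26.8 and 25.4 RPKM in pacing against 19.9, 25.7 and 19.4 RPKM in sham (log2 difference 0.17, adjusted p = 0.724 by limma). The CTSS model shares 101 and 83 exon bases with 2 unnamed models on the opposite strand, and reads there cannot be told apart without the strand setting. CTSB averaged 39.4 ± 2.38 RPKM in pacing and 38.8 ± 2.51 RPKM in sham, with a 95% interval of the log2 difference from -0.20 to 0.24. For CTSD the averages were 19.7 ± 0.991 RPKM in pacing and 19.9 ± 1.67 RPKM in sham (95% interval -0.24 to 0.22). CTSZ averaged 3.04 ± 0.591 RPKM in pacing and 3.08 ± 0.383 RPKM in sham. Many brain cell types make CTSB and CTSD.

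Of the genes that mark activated microglia, the sham libraries spread wider than the pacing libraries in all 4. SPP1 had 313, 370 and 320 RPKM in pacing against 245, 803 and 345 RPKM in sham. Sham replicate 2 was more than the sum of the other sham libraries, and the lowest value was also a sham one. The log2 difference was -0.29 (95% interval -1.21 to 0.63; adjusted p = 0.833 by limma), and it was 0.20 without sham replicate 2. SPP1 lies on chromosome 32 from 11354070 to 11362325.

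Summed levels of markers of several other cell types were also highest in sham replicate 2. Oligodendrocyte markers summed to 1655, 2057 and 1863 RPKM in pacing against 1671, 3023 and 1202 RPKM in sham. Those of the choroid plexus, the tissue that makes cerebrospinal fluid, summed to 156, 73.2 and 105 RPKM in pacing against 2.96, 454 and 43.7 RPKM in sham. Most of that sum was TTR, at 155, 70.5 and 103 RPKM in pacing against 2.46, 449 and 42.9 RPKM in sham. Of the 6 choroid plexus markers 4 lay under 0.5 RPKM, and CLIC6 was highest in pacing replicate 2. Astrocyte markers summed to 1648 to 1879 RPKM in pacing and 1525 to 2524 RPKM in sham, and neuron markers to 1696 to 2037 RPKM in pacing and 1183 to 1939 RPKM in sham, with sham replicate 2 the highest for astrocytes and the lowest for neurons. Osteopontin and the tetraspanin CD9 are also made by oligodendrocytes. Precursors of oligodendrocytes gave a summed 79.2 to 85.2 RPKM in pacing and 56.1 to 108 RPKM in sham, and neutrophil markers 21.5 to 23.2 RPKM in pacing and 9.67 to 37.8 RPKM in sham, both with the highest sum in sham replicate 2. Single markers did not all follow these sums. Among those with the smallest p in limma, OLIG2, GPR17, PDGFRA, SLC1A2 and SLC1A3 were highest in pacing replicate 1. ALDOC and S100A12 were highest in sham replicate 3, and S100A8 and S100A9 in sham replicate 2. Of the 7 neutrophil markers 4 lay under 0.5 RPKM, and S100A9 had 29.8 RPKM in sham replicate 2. Endothelial markers summed to 44.6 to 46.3 RPKM in pacing and 32.1 to 46.9 RPKM in sham, and lymphocyte markers to 2.08 to 2.93 RPKM in pacing and 1.29 to 1.58 RPKM in sham.

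Markers of ependymal cells, the ciliated lining of the ventricles, had another order, at a summed 26.5, 14.3 and 15.7 RPKM in pacing against 36.6, 19.3 and 35.0 RPKM in sham. All 6 were lower in pacing by arm mean, where 41.1% of all genes tested were higher. Their median log2 difference was -0.48, against -0.04 over all genes tested. In 3 of 6 all pacing libraries lay below all sham libraries, against 11.3% of all genes tested. None of the 6 passed the threshold in limma. An unadjusted p under 0.05 was found for 3, all lower in pacing, against 6.3% of all genes tested. The part of these cell types in the values of the microglial genes was not tested.

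LPL, lipoprotein lipase, had 5.33, 6.11 and 4.40 RPKM in pacing against 3.39, 5.43 and 7.59 RPKM in sham, with the sham libraries again on both sides of the pacing ones. Its log2 difference was 0.0022 (95% interval -0.56 to 0.57; adjusted p = 0.998 by limma), so these samples leave a wide range for LPL. CD9 had 7.60, 7.84 and 6.90 RPKM in pacing against 6.47, 9.35 and 5.80 RPKM in sham. GPNMB, a glycoprotein of lipid-laden phagocytes, was under the filter at 0.432, 0.502 and 0.384 RPKM in pacing against 0.198, 0.471 and 0.155 RPKM in sham. With no filter its log2 difference was 0.18 (adjusted p = 0.686 by limma), and sham replicate 2 was the sham library inside the pacing range.

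The receptors for dying cells, AXL and MERTK, are tyrosine kinases that bind phosphatidylserine through bridging proteins, and in brain astrocytes also make them. MERTK had 6.71, 6.24 and 5.88 RPKM in pacing against 5.09, 5.87 and 5.59 RPKM in sham. The arms did not overlap, but pacing replicate 3 and sham replicate 2 were nearly level. The log2 difference was 0.16 (95% interval -0.076 to 0.39; adjusted p = 0.642 by limma). AXL averaged 8.97 ± 0.505 RPKM in pacing and 8.59 ± 0.493 RPKM in sham, with overlap and a 95% interval from -0.17 to 0.28.

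**Figure D3:**
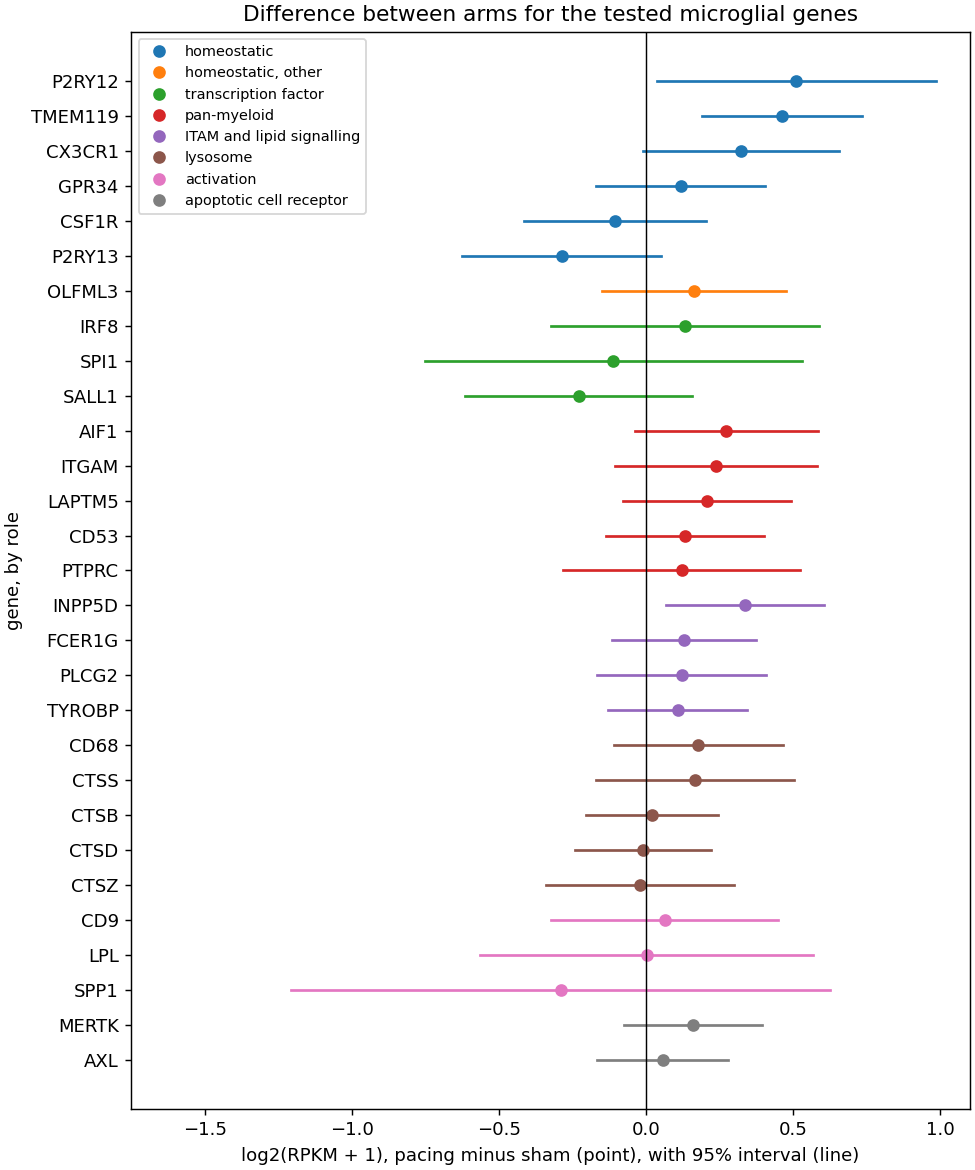
Log2 difference of pacing minus sham for the 29 tested genes, as points with 95% intervals from limma, ordered by role. The intervals of P2RY12, TMEM119 and INPP5D lie above 0, those of the other 26 genes include 0, and none passed after adjustment over all genes.

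All pacing libraries lay above all sham libraries for 4 of 29 genes, or 13.8%, where this held for 4.92% of all genes tested. The genes were P2RY12, TMEM119, INPP5D and MERTK. All pacing libraries lay below all sham libraries for 0 of 29, against 11.3% of all genes tested. Leaving out 1 library can only add to these counts. The first count was largest without sham replicate 2, where 14 of 29 separated (48.3%, against 10.9% of all genes tested). Those 14 added GPR34, CD9, CD68, CTSS, TYROBP and the 5 pan-myeloid genes. Without sham replicate 1 the count was 7 (24.1%, against 12.8% of all genes tested), and without pacing replicate 1 it was also 7 (24.1%, against 7.25%). Without sham replicate 1 the additions were CX3CR1, OLFML3 and PLCG2.

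Sham replicate 1 was the lowest for 13 of the 29 genes (18.8% of all genes tested) and the highest for 1. Sham replicate 3 was the lowest for 10 (15.5% of all genes tested), and sham replicate 2 was the highest for 8 (33% of all genes tested). Pacing replicate 2 was the highest for 10 (12.2%) and the lowest for 0 (16.2%). The SD was larger in sham than in pacing for 23 of 29 genes, and for 79.2% of all genes tested.

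Homeostatic genes were then set against activation and phagocytic genes within each library. The first set was P2RY12, TMEM119 and CX3CR1. The second was the 11 tested genes among CD68, the 4 cathepsins, LPL, SPP1, GPNMB, CD9, AXL, MERTK and TYROBP. The homeostatic mean on the log2(RPKM + 1) scale was 2.04, 2.18 and 2.00 in pacing against 1.89, 1.67 and 1.38 in sham, without overlap. Taken over all 6 homeostatic receptors, the mean was 2.05, 2.23 and 2.07 in pacing against 1.99, 2.06 and 1.79 in sham. There the arms overlapped, since sham replicate 2 lay above pacing replicate 1. The activation mean was 3.72, 3.82 and 3.67 in pacing against 3.51, 3.91 and 3.69 in sham, and the arms overlapped. The arms were apart in the mean of P2RY12, TMEM119 and CX3CR1 by 0.43 and in the activation mean by 0.039.

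The homeostatic mean minus the activation mean was -1.68, -1.65 and -1.67 in pacing against -1.62, -2.24 and -2.31 in sham. Sham replicate 1 lay above all pacing libraries, and sham replicates 2 and 3 lay well below them. The averages were -1.67 ± 0.018 in pacing libraries and -2.06 ± 0.377 in sham libraries (SD, n = 3 per arm), a difference of 0.39, and it was 0.61 without sham replicate 1, 0.30 without sham replicate 2 and 0.27 without sham replicate 3. Set against the 5 pan-myeloid genes in place of the activation genes, the homeostatic mean was -0.316, -0.372 and -0.423 in pacing and -0.236, -0.825 and -0.764 in sham. Sham replicate 1 was again above all pacing libraries. These are descriptions of chosen genes and carry no test.

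**Figure D4:**
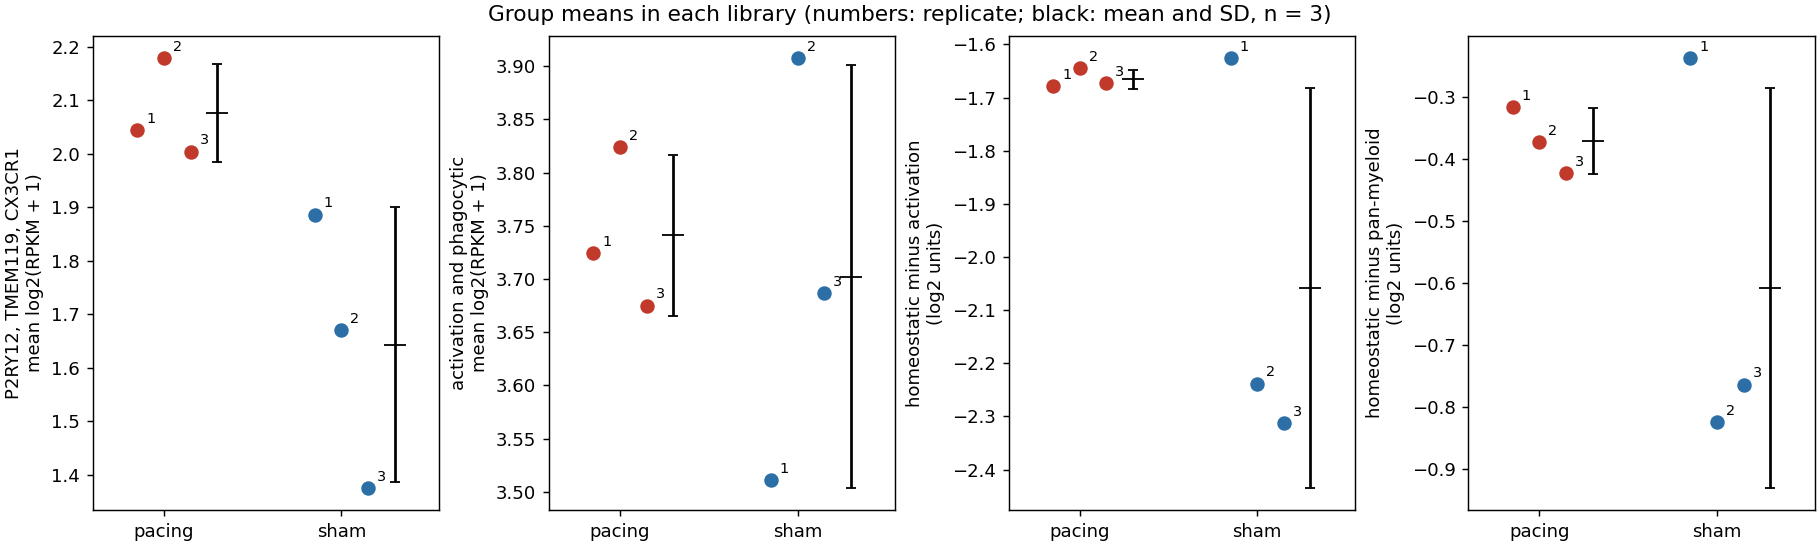
Mean log2(RPKM + 1) of P2RY12, TMEM119 and CX3CR1, mean of the activation and phagocytic genes, and the homeostatic mean minus the activation or the pan-myeloid mean, in each library. Pacing is left of sham, numbers give the replicate, and black marks give the arm mean and SD (n = 3). The pacing libraries of the homeostatic minus activation panel lie between -1.68 and -1.65, and sham replicate 1 at -1.62 lies apart from sham replicates 2 and 3 at -2.24 and -2.31.

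Ligands and partners of these receptors gave 0 of 16 tested genes past the threshold. By arm mean 12 were higher and 4 lower in pacing, where 41.1% of all genes tested were higher. The smallest p was that of SMAD3, a mediator of the TGF-beta signals that maintain homeostatic microglia, at 1.87 ± 0.12 RPKM in pacing and 1.19 ± 0.314 RPKM in sham (adjusted p = 0.455 by limma). CSF1, a ligand of CSF1R, had 1.22, 1.39 and 1.44 RPKM in pacing against 1.82, 3.81 and 1.88 RPKM in sham (adjusted p = 0.529). Its arms did not overlap, with pacing the lower, while CSF1R itself overlapped. APOE, a lipid carrier that binds TREM2 and is made mostly by astrocytes, averaged 2576 ± 357 RPKM in pacing and 2021 ± 185 RPKM in sham (adjusted p = 0.546). In SMAD3 and APOE the arms did not overlap either, with pacing the higher. All pacing libraries lay above all sham libraries in 3 of the 16 and below in 2, against 4.92% and 11.3% of all genes tested.

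Of 33 other microglial identity genes tested, 18 were higher and 15 lower in pacing by arm mean, and 0 passed. All pacing libraries lay above all sham libraries in 4 of them and below in 3, against 4.92% and 11.3% of all genes tested. At an unadjusted p under 0.05 in limma 2 were higher and 3 lower, against 2.85% and 6.3% of all genes tested. SELPLG, the P-selectin ligand of leukocytes and microglia, had 10.9, 11.1 and 10.7 RPKM in pacing against 6.91, 6.64 and 6.22 RPKM in sham, with adjusted p = 0.151 by limma. CYBA, a subunit of the phagocyte NADPH oxidase, averaged 70.2 ± 2.28 RPKM in pacing and 49.1 ± 13.4 RPKM in sham (adjusted p = 0.487). In both SELPLG and CYBA the arms did not overlap, with pacing the higher.

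Of 20 other activation genes tested, 3 were higher and 17 lower in pacing by arm mean, where 41.1% of all genes tested were higher. Their median log2 difference was -0.08, against -0.04 over all genes tested, and 0 passed the threshold. CTSC, a protease that activates granule enzymes, had 2.76, 2.97 and 2.23 RPKM in pacing against 3.06, 6.03 and 4.21 RPKM in sham (adjusted p = 0.499 by limma). VIM, the intermediate filament vimentin, averaged 34.8 ± 3.67 RPKM in pacing and 43.4 ± 5.02 RPKM in sham (adjusted p = 0.53). HAVCR2, the checkpoint receptor TIM-3 that microglia carry, averaged 0.662 ± 0.121 RPKM in pacing and 0.361 ± 0.167 RPKM in sham (adjusted p = 0.54). Among the perivascular macrophage markers CD163, a haemoglobin scavenger receptor, had 8.80, 12.02 and 10.3 RPKM in pacing against 4.62, 9.88 and 3.49 RPKM in sham (adjusted p = 0.522). LYVE1, a hyaluronan receptor, had 11.0, 11.8 and 10.7 RPKM in pacing against 9.28, 38.3 and 21.8 RPKM in sham, and MS4A7 averaged 1.26 ± 0.0943 RPKM in pacing and 1.96 ± 0.626 RPKM in sham. Of the 5 macrophage markers tested, 1 was higher in pacing by arm mean, namely CD163, and 4 were lower. All pacing libraries lay below all sham libraries in 1 of the 5, MS4A7, against 11.3% of all genes tested. The part of these macrophage markers in the microglial values was not tested.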

How the data were processed

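Per the labels' protocols, the hippocampal library kit keeps strand. Trimmomatic 0.36, STAR 2.5.3a and featureCounts are named in the submitters' processing notes; no source here gives the annotation release or the strand setting of the counting. The authors deposited RPKM per gene model. RPKM times the length column was divided by the smallest nonzero product of each library, taken as 1 read. This gave whole reads for 100% of values (tolerance 0.01). Depth is known on that footing and limits the precision of genes with few reads. The sequence names are those of CanFam3.1.

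The analysis used R 4.3.3 and limma 3.58.1: limma-trend on log2(RPKM + 1), mean RPKM of at least 0.5, 3 libraries per arm, no covariate, Benjamini-Hochberg threshold 0.05. It was tested on simulated data with the same spread in both arms. In the real data replicates of an arm differed beyond sampling noise, and more so in sham. Chi-square per degree of freedom was 10.4 to 19.0 for pairs of pacing libraries and 68.3 to 164 for pairs of sham libraries. The simulation therefore does not show how the test behaves with such unequal spread. The genes and lists were chosen with earlier results of these data known. All listed genes with a row were described, and from each other list the 3 with the smallest p, except 1 that is not reported here; for markers of other cell types beside macrophages, summed levels are given instead, and the genes that rule took had adjusted p from 0.406 to 0.991. Alternatives changed the pseudocount, filter, scaling, weights, test and threshold, added the replicate number as a block, or left out each library. The deposited values are not counts, and DESeq2 and edgeR were not run on the recovered reads. Limma-voom on recovered reads was added after the data were seen. No sequence is shown.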

Additional observations from a re-analysis of the deposited data

How the results depend on the processing

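No microglial gene passed under any of the 16 alternatives. The smallest adjusted p among them was 0.0979, for TMEM119 without sham replicate 1, and over the other alternatives the smallest ran from 0.181 with library weights to 0.98 without pacing replicate 2. Over all genes, where 4 passed, 7 passed with no filter, 7 at a threshold of 0.1, 7 with the replicate block, 23 with library weights, and 3 to 95 with 1 library left out (95 without sham replicate 1, 9 without sham replicate 2). The cause was not tested. Between 19 and 26 of the tested microglial genes had the higher arm mean in pacing. Under median-of-ratios and under quantile scaling 24 were, where all genes were then higher in 50.5% and 49.9%. Of 461 repeats for single genes 21 changed sign, in 8 genes that had not passed. Under median-of-ratios and quantile scaling CTSD turned to 0.037 and 0.012 and CTSZ to 0.016 and 0.041. LPL turned to -0.0095 at a pseudocount of 5 and to -0.16 with library weights. With 1 library left out the log2 difference ran from -0.060 to 0.24 for CD9, -0.028 to 0.070 for CTSB, -0.076 to 0.037 for CTSD, -0.14 to 0.054 for CTSZ, -0.048 to 0.32 for IRF8, -0.25 to 0.23 for LPL, -0.41 to 0.17 for SPI1 and -0.66 to 0.20 for SPP1. The homeostatic minus activation difference was 0.19 at a pseudocount of 5 and 0.60 by limma-voom. The labels do not say whether equal replicate numbers pair samples across arms. Deviations of same-numbered libraries correlated across genes at -0.11, 0.064 and -0.011, and pacing replicate 1 correlated best with sham replicate 3 (0.27). With 3 libraries per arm these correlations cannot decide whether samples were paired. With the replicate block 0 microglial genes passed. DESeq2 and edgeR were planned and not run.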

Other observations

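Ratios between microglial genes within a library, chosen after their values were seen, are given as values with no test. P2RY12 over its neighbour P2RY13 was 19.3, 12.17 and 15.6 in pacing against 12.15, 4.73 and 3.94 in sham, with pacing replicate 2 and sham replicate 1 almost level. TMEM119 over CSF1R was 0.180, 0.196 and 0.208 in pacing against 0.139, 0.0859 and 0.0807 in sham, and the arms did not overlap. P2RY12 over CSF1R was 0.823, 0.878 and 1.016 in pacing against 0.839, 0.505 and 0.387 in sham. There the arms overlapped, since sham replicate 1 lay above pacing replicate 1. CX3CR1 over CSF1R was 0.317, 0.288 and 0.274 in pacing against 0.274, 0.163 and 0.159 in sham, so that sham replicate 1 was level with pacing replicate 3. P2RY12 over AIF1 was 0.440, 0.396 and 0.450 in pacing against 0.489, 0.329 and 0.254 in sham, with sham replicate 1 the highest of all libraries. SPP1 over CTSB was 7.43, 9.67 and 8.49 in pacing against 6.65, 19.3 and 9.09 in sham.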
